A study of Mus musculus with 12 samples.

Results

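The genes described here are p53 itself (Trp53), its regulators and a set of its target genes, followed through 3 groups of mouse thymic pre-T cells. The set is a list of 31 genes given by symbol. All 31 were found among the 43629 genes of the count table, and 28 of them passed the low-count filter that left 13944 genes for testing. The other 3, Eda2r, Perp and Ddit4l, had 34, 64 and 10 counts over all 12 libraries and are given by level only. RNA was sequenced from cells sorted from the thymus of C57BL/6 mice, with 4 biological replicates a group. DN3a cells have yet to pass beta selection, a checkpoint for a working T cell receptor beta chain, and DN3b cells have passed it; neither carries CD4 or CD8. Both control groups came from mice of genotype Zfp36l1fl/fl, Zfp36l2fl/fl with no Cre listed. The third group, DCKO, held DN3-like cells from mice of genotype Zfp36l1fl/fl, Zfp36l2fl/fl, CD2cre. There the Cre recombinase, driven by CD2 sequences that act in lymphocytes, deletes both genes. Their protein products attach to AU-rich stretches of messengers and hasten their decay. Cre was listed for DCKO only, and the DCKO samples are labelled DN3 without a split into DN3a and DN3b. In every comparison with DCKO, effects of the deletion, of Cre and of the mix of stages cannot be told apart. The labels state neither the age of the mice nor whether animals were pooled.

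p53 is a transcription factor that is kept scarce by the ubiquitin ligase Mdm2 and its partner Mdm4. DNA breaks or other stress free it from them, and it then switches on genes that halt the cell cycle, repair DNA, lower growth signalling or start cell death. Mdm2 is itself a p53 target, so the protein and its ligase form a loop. In thymocytes the V(D)J recombinase cuts DNA at the DN3 stage, and p53 is known for removing cells whose receptor rearrangement fails. The p53 protein is regulated mostly after translation, so a messenger level does not report its activity.

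The targeted transcripts were depleted in the library set labelled DCKO: Zfp36l1 stood at 1.64 to 3.8 CPM (read counts relative to the TMM-scaled library size, the scale of every level below) against 9.63 to 43.9 in the 8 control libraries. Zfp36l2 stood at 45.4 to 87.9 CPM against 287 to 685. Libraries held 28479157 to 45975678 counts. All 12 markers of DN3 pre-T cells were detected, with a summed level of 8080 to 11200 CPM (DN3a), 5890 to 7850 (DN3b) and 8940 to 13800 (DCKO). In the same order the 8 myeloid markers summed to 19.5 to 31.4, 1.43 to 9.79 and 8.04 to 23.3 CPM, the 8 markers of CD4 and CD8 expressing thymocytes to 10.4 to 23, 36 to 74.4 and 19.4 to 32, and the 5 dendritic markers to 62.8 to 97.4, 52.1 to 114 and 111 to 141. The 6 B cell markers summed to 119 to 164, 244 to 385 and 151 to 195 CPM, nearly all of it Ighm and Cd79b, with 2 counts of Pax5 in all libraries together. The 6 markers of gamma-delta T and NK cells summed to 1230 to 1370, 410 to 709 and 236 to 571, the 8 of thymic stroma to 195 to 270, 82.8 to 165 and 90.4 to 154 (Pdgfra at 0 in every library), and the 6 of erythroid cells and platelets to 6.44 to 20.6, 2.28 to 22.8 and 3.01 to 14 CPM. All 24 cell cycle genes listed beside the members were higher in DN3b and in DCKO than in DN3a, and 2 of them were higher in DCKO than in DN3b. The part of these marker and cycle levels in the results below was not tested, and in bulk samples fewer cells of a type and less RNA per cell cannot be told apart.

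The question asked of these genes was which p53 targets rise with Mdm2 in DCKO cells and which do not. Against DN3b, 5 of 28 members were higher in DCKO (Mdm2, Rrm2b, Polk, Apaf1 and Sesn1) and 5 were lower (Phlda3, Zmat3, Fas, Ddb2 and Ercc5). The other 18 did not pass the test. Each direction is 17.9% of the members, against 10.3% of all genes called higher and 8.58% called lower. The median log2 fold change was -0.09 over the members and -0.02 over all genes. Calls rest on an adjusted p under 0.05 from edgeR's quasi-likelihood test, adjusted over all 13944 genes. Mdm2 had the highest fold change of the 28, and its 95% interval, 0.92 to 1.26 on the log2 scale, lay wholly above those of 23 of the other 27 members. The intervals that reached into it were those of Rrm2b (0.36 to 1.07), Plk3 (0.12 to 1.13), Gadd45a (0.16 to 1.32) and Plk2 (-1.24 to 1.75, on 88 counts in all). Upper quartile scaling moved the split over all genes from 1438 higher and 1197 lower to 1051 and 1644, and that over the members to 3 and 6. Without DCKO libraries 1 and 2 together 1 member was higher (Mdm2) and 2 were lower (Phlda3 and Ddb2). The split over all genes fell as well, to 528 higher and 422 lower.

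**Figure D1:**
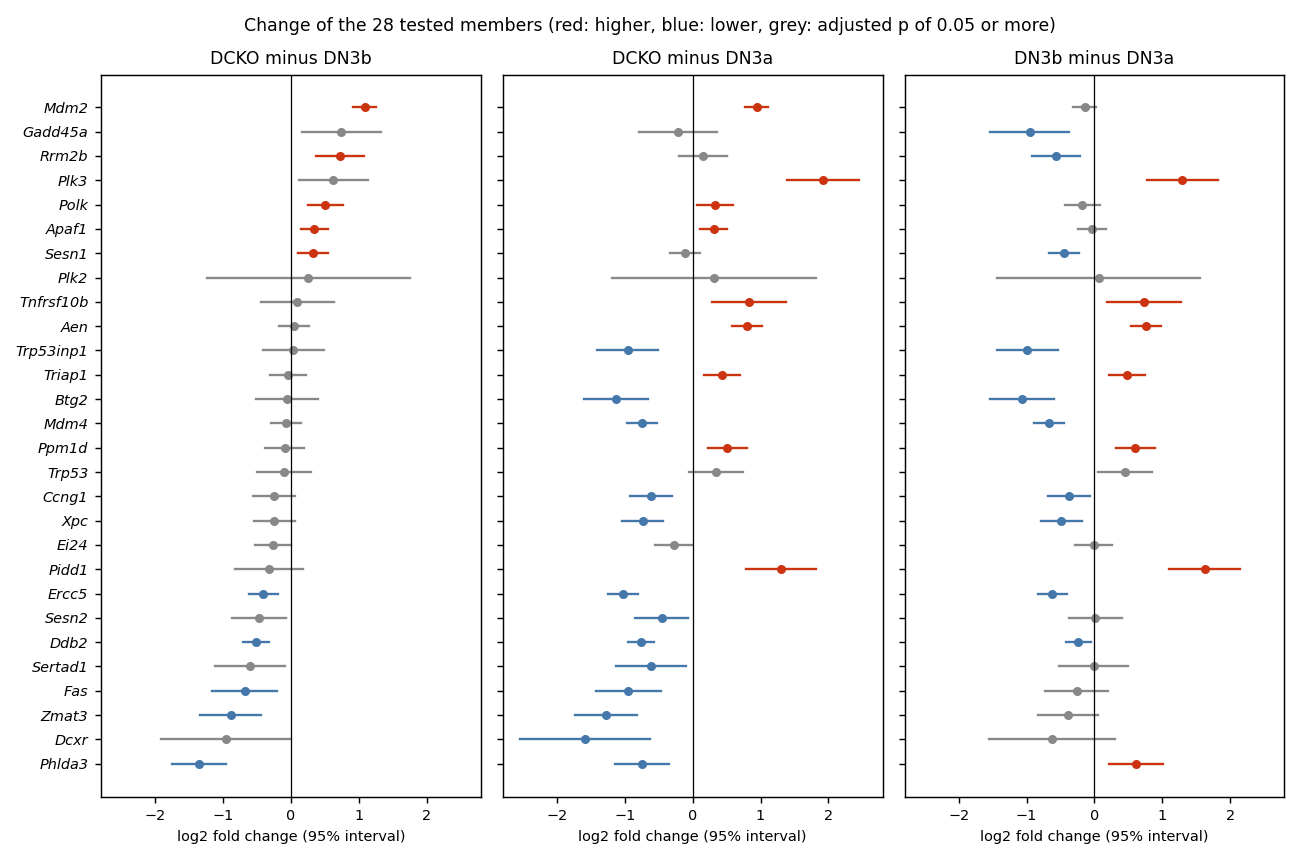
Fitted log2 fold change (x axis) with its 95% interval for each of the 28 tested members (y axis, ordered by the first panel), in DCKO against DN3b, DCKO against DN3a and DN3b against DN3a. Mdm2 stands at the top of the first panel at 1.09 and Phlda3 at the bottom at -1.36, with the other calls between 0.72 and -0.89.

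All 4 DCKO libraries lay above all 8 control libraries for 3 members, Mdm2, Plk3 and Apaf1, and below them for 4, Phlda3, Fas, Ercc5 and Ddb2. These are 10.7% and 14.3% of the tested members, against 7.09% and 5.52% of all genes. The sets were the same with relative log expression scaling. With upper quartile scaling Apaf1 left the first set, while Sertad1 and Zmat3 joined the second. Leaving out 1 library gave 3 or 4 members above and 4 to 7 below. The highest count, 7, came without DCKO library 4, where the shares over all genes rose as well, to 11.3% above and 8.93% below, and where Dcxr, Sesn2 and Xpc joined the 4.

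**Figure D2:**
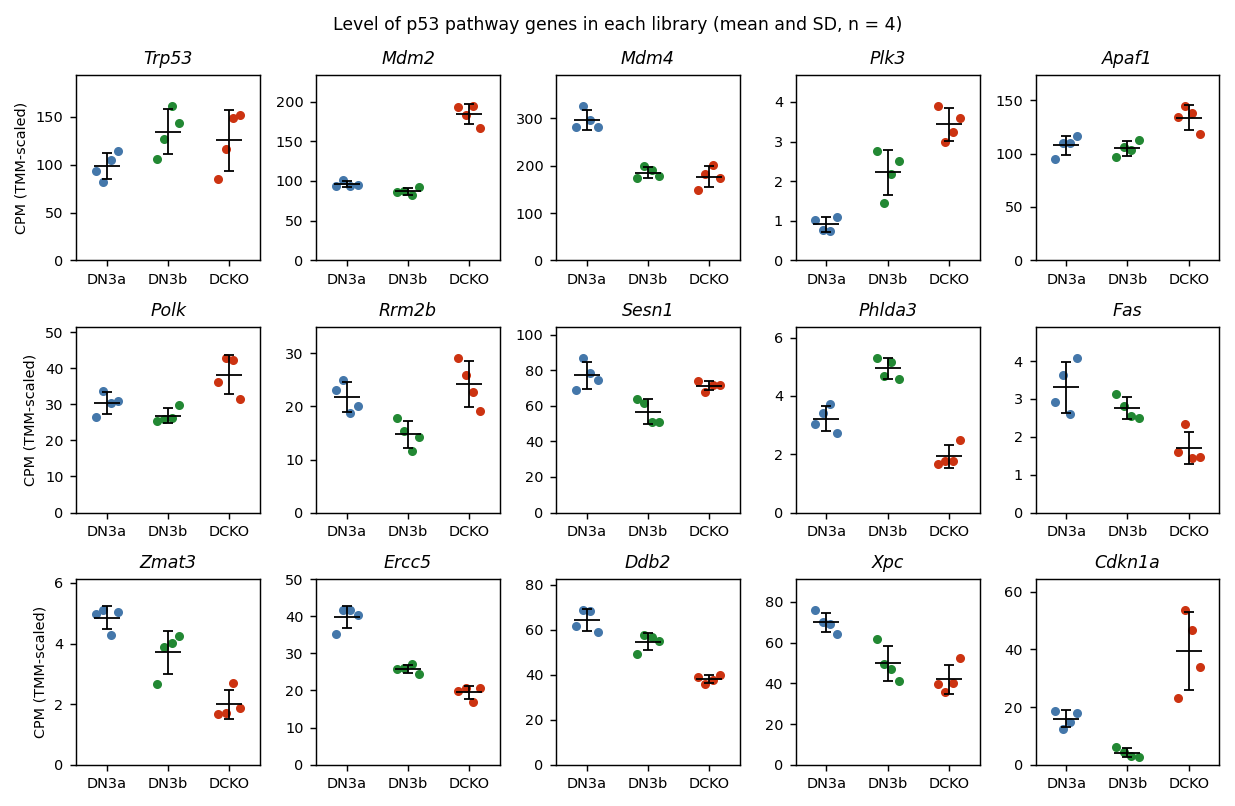
Level in CPM (y axis, from 0) of 14 members and of Cdkn1a in each of the 12 libraries (points), with the mean and SD of the 4 libraries of each group (bars). For Mdm2 the DCKO libraries sit between 167 and 195 CPM and the control libraries between 82.1 and 101, and for Ddb2 they sit between 35.8 and 40.1 below control libraries of 49.5 to 68.9.

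Among the regulators, the messenger of p53 itself did not set DCKO apart. Trp53 (ENSMUSG00000059552, GRCm38 chromosome 11, 69580359 to 69591873) stood at 93.7, 82.3, 105 and 114 CPM in DN3a, at 106, 127, 162 and 144 in DN3b and at 85, 116, 149 and 152 in DCKO. The groups overlapped, and DCKO library 1 was the lowest of its group. The log2 fold change of DCKO was -0.10 ± 0.18 (SE) against DN3b (95% interval -0.5 to 0.29, adjusted p = 0.73) and 0.35 ± 0.18 against DN3a (adjusted p = 0.117). The latter passed without DCKO library 1 (0.46, adjusted p = 0.0272) and without DCKO libraries 1 and 2 together (0.59, 0.0154). Between the control stages the difference of 0.45 ± 0.18 missed the threshold (adjusted p = 0.0538). With only the 8 control libraries it was 0.43 and passed (0.0335). With replicate number as a block in those 8 libraries it was 0.42 (0.00358). It passed as well with DESeq2 (0.44, 0.048) and without DCKO libraries 1 and 2 together (0.43, 0.0238). Leaving out DN3a library 4, DN3b library 1, or DCKO library 1 or 4 gave the same call (0.0223 to 0.0466).

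Mdm2 (ENSMUSG00000020184, chromosome 10, 117688875 to 117710758), the ligase that marks p53 for destruction, stood at 93.7, 101, 93.3 and 95.3 CPM in DN3a, at 86.1, 87, 82.1 and 92 in DN3b and at 193, 183, 195 and 167 in DCKO. The lowest DCKO library was well above the highest control library, and the spread within each group was small. Its mean of 184.6 ± 12.6 (SD, n = 4) was 2.13-fold above DN3b (log2 1.09 ± 0.08, adjusted p = 5.1e-06) and 1.93-fold above DN3a (0.95 ± 0.08, 3.36e-06). Between the control stages Mdm2 was at -0.14 ± 0.08 (adjusted p = 0.14), and passed as lower in DN3b with replicate number as a block (-0.17, 0.0358) and with upper quartile scaling (-0.29, 0.00838). Mdm4 (ENSMUSG00000054387, chromosome 1, 132959484 to 133030561), the related protein that holds p53 inactive without a strong ligase activity of its own, took another course. It stood at 281, 327, 296 and 281 CPM in DN3a, at 173, 200, 190 and 179 in DN3b and at 148, 182, 201 and 174 in DCKO. Relative to DN3a it fell 1.6-fold in DN3b (log2 -0.68 ± 0.10, adjusted p = 0.0002) and 1.68-fold in DCKO (-0.75 ± 0.10, 5.5e-05), and DCKO and DN3b overlapped (-0.08 ± 0.10, 0.64). Per exon length, Mdm2 reads stood to Mdm4 reads as 0.944 ± 0.0412 (DN3a), 1.37 ± 0.123 (DN3b) and 3.09 ± 0.478 (DCKO), each a mean with its SD over n = 4 libraries. The lowest DCKO ratio was 2.81 and the highest control ratio 1.5. Ppm1d, the phosphatase Wip1 that removes activating phosphates from p53, stood at 27.4 ± 2.28, 41.5 ± 7.11 and 38.9 ± 4.28 CPM in DN3a, DN3b and DCKO. It was higher in both later groups than in DN3a (adjusted p = 0.0024 and 0.0054), and was at -0.09 between them (0.66). The call in DCKO against DN3a was lost with upper quartile scaling (0.28, 0.0721) and without DCKO libraries 1 and 2 together (0.43, 0.0633).

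The p53 half-site is the 10-base unit that p53 binds in pairs: 3 purines, a C, 2 bases that are A or T, a G and 3 pyrimidines. It reads alike on both strands. RefSeq promoter windows on GRCm38.p6, from 250 bases before to 50 after a gene's start, were at hand for 24 of the 31 members, as 28 windows. The half-site was found in 10 of these 24 members, against 7.83% of the tested genes that have a window and 8.36% of all windows. It was found for 3 of the 4 members with a window that were called higher in DCKO against DN3b and for 0 of the 3 called lower. That split rests on few genes, and the windows of Polk and Sesn1 with a half-site stand at starts inside the gene. The share among all genes called higher or lower was not computed, and members that did not pass held half-sites too. These matches describe the letters in the window only. No member called lower in DCKO against DN3b is shown, as none with a window held a half-site. The stretches that hold a half-site in some of the other members are shown, with it in capitals. That of Cdkn1a, which holds a pair of half-sites as 24 of the 32851 windows do, is added for comparison:
Mdm2 (chr10:117710920-117710959, minus strand): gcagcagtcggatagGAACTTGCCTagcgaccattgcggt
Polk (chr13:96519394-96519433, minus strand, inner start): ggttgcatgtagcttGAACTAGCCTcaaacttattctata
Sesn1 (chr10:41887251-41887290, plus strand, inner start): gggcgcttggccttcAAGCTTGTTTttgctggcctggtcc
Ppm1d (chr11:85311107-85311146, plus strand): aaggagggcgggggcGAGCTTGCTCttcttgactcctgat
Ccng1 (chr11:40755447-40755486, minus strand): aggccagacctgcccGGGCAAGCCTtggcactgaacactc
Gadd45a (chr6:67037423-67037462, minus strand): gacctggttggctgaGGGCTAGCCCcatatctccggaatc
Ei24 (chr9:36797320-36797359, minus strand): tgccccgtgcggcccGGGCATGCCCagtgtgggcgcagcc
Aen (chr7:78895922-78895961, plus strand): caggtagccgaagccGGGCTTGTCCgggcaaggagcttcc
Cdkn1a (chr17:29090891-29090952, plus strand): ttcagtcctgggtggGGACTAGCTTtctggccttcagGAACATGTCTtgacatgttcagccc
Of the genes shown, Mdm2, Polk and Sesn1 were higher in DCKO than in DN3b, and Cdkn1a was too. Ppm1d, Ccng1, Gadd45a, Ei24 and Aen did not pass in that comparison. Trp53 and Ddit4l held a half-site as well.

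The whole Mdm2 window (chr10:117710709-117711008, minus strand, half-site in capitals) is given because Mdm2 had the highest fold change of the members in DCKO against DN3b:
Mdm2 window: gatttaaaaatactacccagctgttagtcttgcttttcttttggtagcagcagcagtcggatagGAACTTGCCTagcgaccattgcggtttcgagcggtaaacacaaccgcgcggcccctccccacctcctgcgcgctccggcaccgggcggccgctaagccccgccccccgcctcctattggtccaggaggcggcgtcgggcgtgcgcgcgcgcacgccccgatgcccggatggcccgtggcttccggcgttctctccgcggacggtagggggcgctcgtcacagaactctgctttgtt
The half-site starts 186 bases before the annotated start and stands alone in this window. Mdm2 is known to have a second, p53-responsive promoter inside the gene, which this window does not cover.

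Of the targets that act on the cell cycle and on growth signals, Sesn1 was the one called higher in DCKO against DN3b. For scale, Cdkn1a, the cycle inhibitor p21 and no member of the list, ranged over 12.5 to 18.6 CPM (DN3a), 2.77 to 6.21 (DN3b) and 23.1 to 53.7 (DCKO), with no overlap between the groups. Plk3, a polo-like kinase of the stress response, stood at 1.03, 0.765, 0.734 and 1.1 CPM in DN3a, at 2.76, 1.45, 2.18 and 2.51 in DN3b and at 3.91, 2.98, 3.24 and 3.6 in DCKO. Each DCKO library was above each DN3b library, and each DN3b library above each DN3a library. Plk3 rose 3.79-fold in DCKO against DN3a (log2 1.92 ± 0.25, adjusted p = 3.48e-05) and 2.46-fold in DN3b against DN3a (1.3 ± 0.24, 0.000807), but its difference between DCKO and DN3b, 0.63 ± 0.23, missed the threshold (0.078). That difference passed with DESeq2 (0.0382). Its relative Plk2 had 88 counts in all and levels from 0 to 0.381 CPM. Sesn1, a sestrin that restrains mTORC1, stood at 69.1, 87, 78.5 and 74.4 CPM in DN3a, at 63.6, 61.6, 50.7 and 51.1 in DN3b and at 73.7, 67.7, 71.8 and 71.4 in DCKO. It was 1.25-fold above DN3b (log2 0.33 ± 0.10, adjusted p = 0.0411) and overlapped DN3a (-0.12, 0.33). The call against DN3b was lost on leaving out any 1 of 9 libraries (all of DCKO, the last 3 of DN3b, the last 2 of DN3a; 0.0539 to 0.155). With upper quartile scaling it was lost too (0.25, 0.125), and Sesn1 passed as lower than in DN3a (-0.34, 0.0146). Sesn2, the other sestrin, had 3.95 to 5.1 CPM in DCKO and 4.71 to 7.48 in the controls, and fell by 0.46 against DN3a (adjusted p = 0.0447). That call was lost on leaving out any 1 of 6 libraries (DN3a 1, 3, 4; DCKO 1, 2, 3; 0.0692 to 0.126).

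The most abundant cycle-related members were low in both later groups. Btg2, an antiproliferative adaptor of the deadenylase complex, had a mean of 334 ± 83.2 CPM before beta selection (DN3a), 159 ± 51.5 after it (DN3b) and 153 ± 10.5 with both genes deleted (DCKO; SD, n = 4 each), and fell by 1.13 ± 0.22 on the log2 scale in DCKO against DN3a (adjusted p = 0.000642). Trp53inp1, a stress protein that binds p53, stood at 622 ± 98.3, 313 ± 105 and 321 ± 50.4 CPM and fell by 0.95 ± 0.21 (0.0016). Ccng1, cyclin G1, which brings a phosphatase to Mdm2, was lowest in DCKO library 4 at 73.2 CPM, with 104 to 124 in the other DCKO libraries, 104 to 138 in DN3b and 148 to 178 in DN3a. It fell by 0.62 ± 0.14 in DCKO against DN3a (0.00246) and was at -0.25 ± 0.14 against DN3b (0.248). Gadd45a, a stress sensor that binds p21 and PCNA, ranged over 2.63 to 4.13 CPM (DN3a), 1.01 to 2.5 (DN3b) and 2.46 to 3.26 (DCKO). It fell by 0.96 ± 0.27 from DN3a to DN3b (0.00968). In DCKO it was at 0.74 ± 0.27 against DN3b (0.0734), which passed with DESeq2 (0.0306) and without DN3b library 1 (0.97, 0.0252). Sertad1, a regulator of CDK4, stood at 2.46 to 3.75 CPM in DCKO, and 3.68 to 6.81 in the controls. It fell by 0.61 ± 0.24 against DN3a (0.0398), a call lost on leaving out any 1 of 4 libraries (DN3a 1, 3; DCKO 3, 4; 0.071 to 0.128), and was at -0.61 ± 0.24 against DN3b (0.0935). Dcxr, a carbonyl reductase, had 0.835 to 2.81 CPM in DCKO and 3.7 to 7.99 in DN3a. It fell by 1.59 ± 0.45 against DN3a (0.00787), a call lost without DCKO libraries 1 and 2 together (-1.3, 0.0764), and its DN3b libraries reached from 1.79 to 6.00.

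Of the 5 DNA repair members, 2 were higher in DCKO than in DN3b and 2 were lower. The 3 genes of nucleotide excision repair were all lower in DCKO than in DN3a. Ddb2 (ENSMUSG00000002109, chromosome 2, 91211572 to 91236982), which finds ultraviolet lesions in chromatin, stood at 61.9, 68.9, 68.2 and 59 CPM in DN3a, at 49.5, 57.6, 56.8 and 55.1 in DN3b and at 39.1, 35.8, 37.5 and 40.1 in DCKO. Every DCKO library was below every control library, and Ddb2 was 1.44-fold below DN3b (log2 -0.52 ± 0.09, adjusted p = 0.00168) and 1.69-fold below DN3a (-0.76 ± 0.09, 1.91e-05). Ddb2 exons overlap Acp2 on the other strand, which had 10757 counts over all libraries against 23690 for Ddb2. The part of this overlap in the Ddb2 values was not tested. Ercc5 (ENSMUSG00000026048, chromosome 1, 44147744 to 44181260), the endonuclease XPG, stood at 35.3, 41.6, 41.7 and 40.3 CPM in DN3a, at 25.7, 26.1, 27.2 and 24.5 in DN3b and at 19.9, 20.6, 17 and 20.6 in DCKO. The 3 groups did not overlap, and Ercc5 was 1.33-fold below DN3b (-0.41 ± 0.10, 0.0139) and 2.04-fold below DN3a (-1.03 ± 0.10, 6.96e-06). The call against DN3b was lost with replicate number as a block (-0.43, 0.0942) and without DCKO libraries 1 and 2 together (-0.47, 0.0548). Xpc, which recognises distorted DNA, fell by 0.73 ± 0.14 in DCKO against DN3a (0.000628) and ranged over 64.4 to 76.1 CPM in DN3a and 35.8 to 52.4 in DCKO. Against DN3b, at 41 to 61.8 CPM, it was at -0.25 ± 0.14 (0.233).

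The other pair of repair members, which serve DNA synthesis, was higher in DCKO than in DN3b. Rrm2b (ENSMUSG00000022292, chromosome 15, 37923952 to 37961318), the p53-inducible subunit of ribonucleotide reductase, stood at 23.2, 25, 18.7 and 20.1 CPM in DN3a, at 17.8, 15.4, 11.6 and 14.2 in DN3b and at 29.2, 25.9, 22.8 and 19.1 in DCKO. DCKO lay above DN3b without overlap and overlapped DN3a. Rrm2b was 1.64-fold above DN3b (log2 0.72 ± 0.17, adjusted p = 0.00956) and at 0.16 ± 0.16 against DN3a (0.427), after a fall of 0.56 ± 0.16 from DN3a to DN3b (0.0118). The call in DCKO against DN3b was lost without DCKO libraries 1 and 2 together (0.51, 0.152). Polk (ENSMUSG00000021668, chromosome 13, 96480690 to 96542579), a polymerase that copies past lesions, stood at 26.5, 33.8, 30.4 and 31 CPM in DN3a, at 25.5, 25.8, 26.3 and 29.9 in DN3b and at 36.3, 42.9, 42.2 and 31.4 in DCKO. It was 1.42-fold above DN3b (0.51 ± 0.12, 0.0114), a call lost with replicate number as a block (0.0917) and without DCKO libraries 1 and 2 together (0.108). Its rise against DN3a, 0.33 ± 0.12 (0.0305), was lost on leaving out any 1 of 8 libraries (DN3a 1, 3, 4; DN3b 2, 3; DCKO 1, 2, 3; 0.0503 to 0.13), and with upper quartile scaling it was at 0.10 (0.472).

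**Figure D3:**
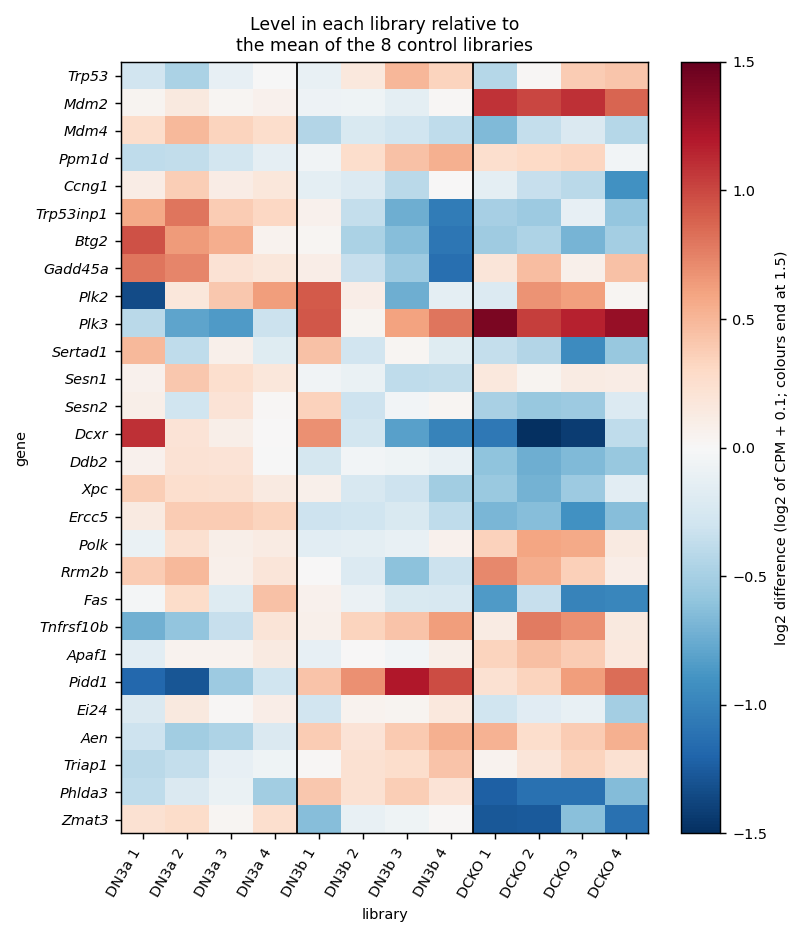
Difference on the log2 scale (colour; log2 of CPM + 0.1) between each library and the mean of the 8 control libraries, for the 28 tested members (rows, by role) in the 12 libraries (columns). Mdm2 and Plk3 are red and Phlda3, Zmat3, Ddb2 and Ercc5 blue in all 4 DCKO libraries, while Btg2 and Trp53inp1 are high in DN3a.

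The cell death members also went both ways. Apaf1 (ENSMUSG00000019979, chromosome 10, 90989311 to 91082770), the scaffold on which caspase 9 is activated, stood at 94.7, 110, 110 and 116 CPM in DN3a, at 97.1, 106, 103 and 113 in DN3b and at 134, 145, 138 and 118 in DCKO. All DCKO libraries were above all controls, by a small margin in library 4. Apaf1 was 1.27-fold above DN3b (log2 0.34 ± 0.09, adjusted p = 0.023) and 1.24-fold above DN3a (0.31 ± 0.09, 0.0125). The first call was lost on leaving out any 1 of 6 libraries (the first 3 of DN3b and of DCKO; 0.0536 to 0.0918) and the second without DCKO library 2 (0.0634). With upper quartile scaling, which moved the median of all genes in DCKO against DN3a from -0.04 to -0.26, Apaf1 was at 0.08 (0.446). The call against DN3b was lost with that scaling too (0.27, 0.0617), with no low-count filter (0.0598) and with replicate number as a block (0.121). That against DN3a was lost with the block as well (0.27, 0.0749). Fas (ENSMUSG00000024778, chromosome 19, 34290666 to 34327772), a death receptor, stood at 2.92, 3.64, 2.61 and 4.09 CPM in DN3a, at 3.14, 2.82, 2.55 and 2.51 in DN3b and at 1.61, 2.34, 1.44 and 1.47 in DCKO. Its libraries were low in DCKO with no overlap, though DCKO library 2 came near the lowest DN3b library. Fas was 1.93-fold below DN3a (-0.95 ± 0.22, 0.00259) and 1.61-fold below DN3b (-0.68 ± 0.22, 0.048). The latter call was lost on leaving out any 1 of 9 libraries (DN3a 2, 3, 4; DN3b 1, 2, 3; DCKO 1, 3, 4; 0.0531 to 0.111) and with relative log expression scaling (-0.67, 0.0515). Tnfrsf10b, the receptor for the death ligand TRAIL, went the other way with 1.5 to 2.92 CPM (DN3a), 2.69 to 4 (DN3b) and 2.78 to 4.45 (DCKO). It was 1.77-fold above DN3a in DCKO (0.82 ± 0.25, 0.013), a call lost without DCKO library 2 (0.0512), and at 0.09 against DN3b, with an interval of -0.45 to 0.63.

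Pidd1, the core of a complex that activates caspase 2, had the largest rise of any member between the control stages. It ranged over 8.34 to 16.6 CPM (DN3a), 27.6 to 47.2 (DN3b) and 24 to 36.7 (DCKO), and rose 3.08-fold in DN3b (log2 1.63 ± 0.24, adjusted p = 0.000176) and 2.46-fold in DCKO (1.3 ± 0.24, 0.00048) against DN3a. Aen, a nuclease linked to apoptosis, rose 1.69-fold and 1.74-fold, and Triap1, a mitochondrial protein that counters apoptosis, 1.39-fold and 1.35-fold. With upper quartile scaling Triap1 was at 0.21 in DCKO against DN3a and lost its call (0.144). None of Pidd1, Aen and Triap1 passed between DCKO and DN3b (-0.33, 0.05 and -0.04, adjusted p = 0.355, 0.797 and 0.853). Ei24, a protein of the endoplasmic reticulum, stood at 40.7 to 53.6 CPM in DCKO and at 47.6 to 64.7 in the controls. It was at -0.28 ± 0.12 against DN3a (0.0641), which passed on leaving out any 1 of 4 libraries (DN3a 1; DN3b 1, 4; DCKO 3; 0.0264 to 0.0435) and with upper quartile scaling (-0.51, 0.00373). Perp, a membrane protein of the apoptotic response, reached at most 0.456 CPM in any library. Eda2r, a receptor of the TNF receptor family, reached 0.293 and the growth inhibitor Ddit4l 0.0714.

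Phlda3 had the largest fall of any member in DCKO against DN3b. Phlda3 (ENSMUSG00000041801, chromosome 1, 135766119 to 135769136), which keeps the survival kinase Akt from the membrane, stood at 3.04, 3.41, 3.72 and 2.73 CPM in DN3a, at 5.31, 4.69, 5.17 and 4.59 in DN3b and at 1.65, 1.78, 1.78 and 2.49 in DCKO. It was highest in DN3b and lowest in DCKO, with no overlap between any of the groups. It was 2.56-fold below DN3b (log2 -1.36 ± 0.19, adjusted p = 0.00041) and 1.68-fold below DN3a (-0.75 ± 0.19, 0.00387), while DN3b was 1.53-fold above DN3a (0.0126). Zmat3 (ENSMUSG00000027663, chromosome 3, 32334792 to 32366014), a zinc finger protein that binds RNA, stood at 4.96, 5.11, 4.29 and 5.04 CPM in DN3a, at 2.67, 3.9, 4.01 and 4.26 in DN3b and at 1.69, 1.7, 2.69 and 1.88 in DCKO. DCKO library 3 just exceeded DN3b library 1, and the groups were otherwise apart. Zmat3 was 1.85-fold below DN3b (-0.89 ± 0.21, 0.0112) and 2.42-fold below DN3a (-1.28 ± 0.21, 0.000221). The call against DN3b was lost with replicate number as a block (-0.92, 0.067) and without DCKO libraries 1 and 2 together (-0.69, 0.15).

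Set against DN3a, the stage before beta selection, 9 of 28 members were higher in DCKO and 13 lower, with 6 not passing. These are 32.1% and 46.4% of the members, against 30.7% and 29.5% of all genes, and the medians were -0.25 and -0.04. The 9 were Mdm2, Plk3, Pidd1, Tnfrsf10b, Aen, Ppm1d, Triap1, Polk and Apaf1. The 13 were Mdm4, Ccng1, Sesn2, Trp53inp1, Phlda3, Fas, Zmat3, Btg2, Dcxr, Ercc5, Sertad1, Xpc and Ddb2. Upper quartile scaling gave 5 higher and 15 lower members, and moved the split over all genes from 4275 higher and 4116 lower to 3119 and 5528. Without DCKO libraries 1 and 2 together the counts were 6 and 10, and those over all genes fell as well, to 3423 and 3209. Here the interval of Mdm2, 0.77 to 1.12, lay wholly above that of 21 of the 27 others. The interval of Plk3 (1.39 to 2.45) lay above it, and those of Pidd1 (0.78 to 1.82), Tnfrsf10b (0.28 to 1.37), Aen (0.58 to 1.03), Ppm1d (0.22 to 0.8) and Plk2 reached into it.

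Between the control stages 7 of 28 members were higher in DN3b and 10 lower, in the fit that left the pairing of replicate numbers out. These are 25% and 35.7% of the members, against 27.4% and 25.2% of all genes, and the medians were -0.16 and -0.02. The 7 were Pidd1, Plk3, Aen, Tnfrsf10b, Phlda3, Ppm1d and Triap1. The 10 were Btg2, Trp53inp1, Gadd45a, Mdm4, Ercc5, Rrm2b, Xpc, Sesn1, Ccng1 and Ddb2. With only the 8 control libraries the counts were 3564 and 3613 over all genes and 8 and 10 over members, with Trp53 among the 8. Replicate numbers paired DN3a with DN3b in the data. With replicate number as a block in those libraries the counts over all genes rose to 4529 higher and 4704 lower. Those of members were 8 and 12, and Mdm2 and Dcxr (-0.73, adjusted p = 0.00477) joined the members called lower. The calls of Ccng1 (-0.37, 0.0433) and Ddb2 (-0.24, 0.0374) were the least firm. Ccng1 lost its call on leaving out any 1 of 6 libraries (DN3a 2, 3, 4; DN3b 1, 2, 3; 0.0594 to 0.119), and Ddb2 with any 1 of 5 (DN3a 2, 3; DN3b 1, 3, 4; 0.0574 to 0.109). Tnfrsf10b (0.73, 0.0273) lost it with any 1 of 5 (DN3a 1, 2, 3; DN3b 3, 4; 0.0582 to 0.078). Dcxr passed as lower without DN3b library 1 (-1.11, 0.031). Upper quartile scaling gave 5 and 13 members, with Phlda3 (0.46, 0.0501) and Tnfrsf10b (0.59, 0.0602) no longer called higher, and moved the split over all genes from 3815 higher and 3519 lower to 3021 and 4536. The comparisons of DCKO with DN3a and of DN3b with DN3a share the DN3a libraries, so their values are given side by side only.

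Abundance of the members, per kb of exon, spanned about 4 orders of magnitude. In DCKO Btg2 (55.7 CPM per kb), Trp53inp1 (49.6) and Mdm2 (36.3) led, followed by Trp53 (31) and Ccng1 (29.1). In DN3a Btg2 stood at 122, Trp53inp1 at 96.1, Ccng1 at 44.8 and Mdm2 at 18.9. Of the 5 members called lower in DCKO against DN3b, 3 were scarce in every group, with Phlda3 at 1.24 to 3.17, Fas at 0.831 to 1.61 and Zmat3 at 0.174 to 0.424 CPM per kb. Ddb2 stood at 13.9 to 23.6 and Ercc5 at 3.33 to 6.78.

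**Figure D4:**
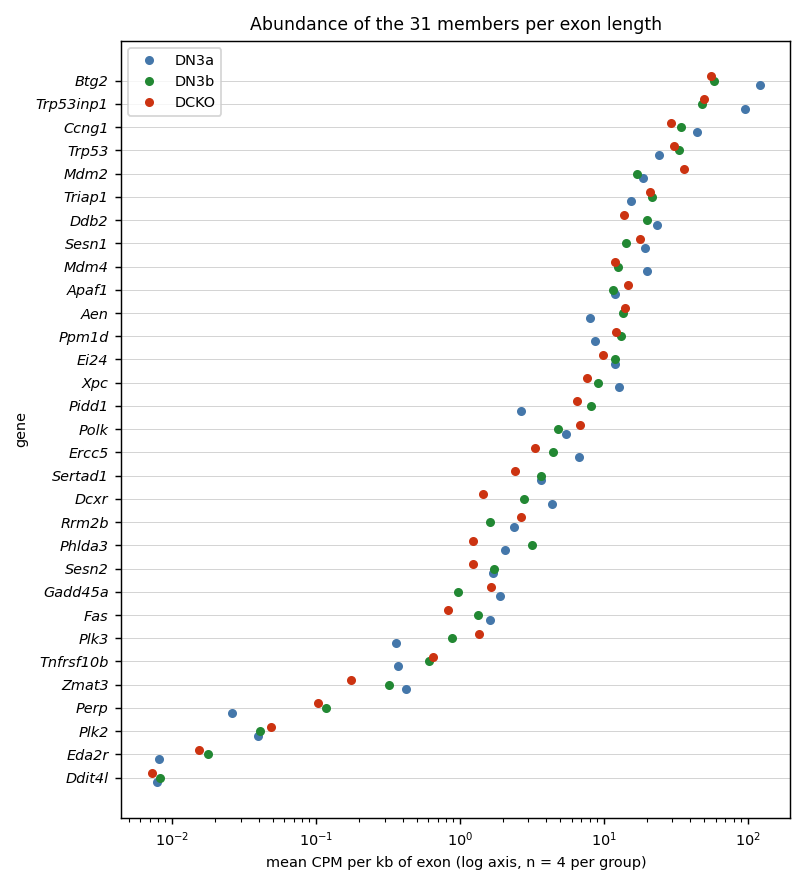
Mean level per kb of exon (x axis, log scale, CPM per kb) of all 31 members (y axis) in DN3a, DN3b and DCKO, 4 libraries each. Mdm2 moves from 18.9 and 17.1 in the controls to 36.3 in DCKO, and Btg2 and Trp53inp1 head the scale in every group.

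The deleted proteins bind AU-rich messengers, so the heptamer TATTTAT, a core of AU-rich elements, was searched on the sense strand of the longest annotated 3′ untranslated region (3′ UTR) of each gene, with overlapping matches counted. It was present in 13 of the 28 tested members, 46.4%, against 29.8% of the 11683 tested genes with a 3′ UTR. Over the 28 members, the share among genes whose 3′ UTR is within 10% of the member's length averaged 28.7%. Of the 5 members called higher in DCKO against DN3b 4 held it (3′ UTRs of the 5: 1066 to 3293 bases), and of the 5 called lower 0 did (178 to 6692 bases). Plk3 held 3 heptamers in 332 bases, where 6.9% of genes of like length hold any. Rrm2b held 4 in 3293 bases (54.1% of genes of like length hold any), Polk 2 in 1480 (31.8%), Mdm2 1 in 1335 (31.8%) and Apaf1 1 in 2139 (40.8%). Of the members called lower, Zmat3 held 0 in 6692 bases (68.4%) and Phlda3 0 in 727 (20.6%). Fas held 0 in 448 (10.4%), Ddb2 0 in 345 (8.43%) and Ercc5 0 in 178 (6.19%). The part of 3′ UTR length in the difference between members called higher and lower was not tested. The share with a heptamer among all genes called higher or lower was not computed. Sesn1, the other member called higher, held 0 in 1066 bases (27.2%). Plk3 did not pass in DCKO against DN3b. One match each is shown for Plk3 and the 4 members called higher that hold the heptamer, in DNA letters with the match in capitals:
Plk3: ggaccactttTATTTATtaacagacat
Mdm2: gcattgatgtTATTTATttgcaaataa
Rrm2b: gttgcacattTATTTATtatgtttagt
Polk: atagtcaataTATTTATtcttcctcat
Apaf1: gacttttttgTATTTATaatttccatg
Matches describe the annotated sequence only. Binding was not measured, and heptamers stand as well in many members that did not pass between DCKO and DN3b. These are Plk3 and Tnfrsf10b with 3, Trp53inp1 and Plk2 with 2, and Mdm4, Ccng1, Gadd45a, Btg2 and Pidd1 with 1 each.

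Further genes of the pathway were taken from a pair of lists. Of 37 tested targets outside the 31 members, 3 were higher and 8 lower in DCKO than in DN3b, against 10.3% and 8.58% of all genes, and the median log2 fold change was -0.20. The 3 were Cdkn1a, 9.46-fold higher (log2 3.24 ± 0.31, adjusted p = 2.42e-05), Gadd45b (1.18, 0.0434) and Tigar (0.60, 0.0488). Gadd45b was scarce and its libraries overlapped, at 1.053 to 2.459 CPM in DCKO and 0.423 to 1.214 in DN3b. Its log2 fold change against DN3a was -0.01. Tigar libraries overlapped too, at 7.049 to 12 CPM in DCKO and 5.572 to 8.07 in DN3b. The largest fall was in Ephx1, a microsomal epoxide hydrolase, from 1.68 ± 0.456 CPM in DN3b to 0.213 ± 0.0532 in DCKO (-2.98, 2.97e-05). The third sestrin Sesn3, known as a FOXO target, fell by 1.03 (0.000328), and the death genes Bbc3 and Bak1 fell by 1.82 (0.0149) and 0.56 (0.019). Bbc3 was scarce and its libraries overlapped, at 0.3062 to 0.8293 CPM in DCKO and 0.8135 to 2.738 in DN3b. Lower as well were Fdxr (-0.88, 0.0282), Pvt1 (-1.16, 0.0255), the survival gene Bcl2l1 (-0.37, 0.0289) and Ptp4a3 (-0.63, 0.0359). The death genes Pmaip1 (0.88, 0.322), Bax (-0.32, 0.261) and Bid (-0.10, 0.585) did not pass. Against DN3a 8 of the 37 rose and 12 fell, where 30.7% and 29.5% of all genes did. Of 25 tested upstream kinases, ligases and cofactors, 1 was higher than in DN3b, the histone methyltransferase Kmt5a (0.48, 0.0301), and 2 were lower, Ppp1r13l (-1.15, 0.00887) and Ppp1r13b (-0.70, 0.0388), both of the ASPP family of p53-binding proteins. Gadd45b, Tigar, Bcl2l1, Ptp4a3, Pmaip1, Bax, Bid, Kmt5a and Ppp1r13b were named after their values were seen. In DCKO against DN3a 7 of these 25 rose and 9 fell, against 30.7% and 29.5% of all genes. In DN3b against DN3a 8 rose and 6 fell, against 27.4% and 25.2% of all genes.

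The authors' deposited table of DCKO against DN3b called 7 members higher and 6 lower, and gave all 28 tested members the sign found here. Gadd45a, Plk3 and Sertad1 passed there and not in the edgeR fit (adjusted p = 0.0428, 0.0471 and 0.0454 in the authors' deposited table). In the authors' deposited table of DCKO against DN3a 9 members were higher and 13 lower, the same calls as here. In the authors' deposited table of DN3b against DN3a 8 were higher and 9 lower, with Trp53 called only there and Ddb2 only here.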

How the data were processed

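The 12 libraries (3 groups of 4) were made from total RNA of FACS sorted cells with a stranded kit after ribosomal RNA removal, per the labels. Reads were handled with Trim Galore, TopHat2 2.0.12 and HTSeq on GRCm38, then DESeq2 1.6.3, per the submitters' processing notes. No source used here states which annotation release or strand option was applied. Exons of Gadd45a, Ei24, Rrm2b, Plk3 and Ddb2 overlap a gene on the other strand, whose reads cannot be told apart.

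The authors deposited raw counts per gene, which were used for every value unless their tables are named. The size-factor scaled signal the authors deposited served as a check only. In the authors' deposited DESeq2 tables each gene has a log2 fold change, a Wald score, a p-value and an adjusted p-value. Symbols, positions and exon lengths are from GENCODE M21 (42548 of 43629 genes matched).

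Genes were kept with filterByExpr (count minimum 10). One edgeR 4.0.16 quasi-likelihood fit (R 4.3.3, TMM, group as the only term, 9 residual degrees of freedom) gave the 3 contrasts, two-sided, with Benjamini-Hochberg adjustment over 13944 genes and a threshold of 0.05. Adjusted p-values in the text are edgeR's unless DESeq2 1.42.0 or limma 3.58.1 is named. An SE is the size of the log2 fold change over the square root of F, and intervals are 95%. The fit was tested on simulated data. CPM carry counting error and replicate spread; PCR copies are not separated. Replicate numbers paired DN3a with DN3b (correlation of deviations within numbers 0.316 to 0.52), from the data rather than the labels; those of DCKO did not pair. Members and lists were chosen with earlier results of these data known. Every member is named. Library values are given for Trp53, Mdm2, Mdm4 and those called in DCKO against DN3b or with all DCKO libraries on 1 side of the controls. Other pathway genes were chosen by smallest adjusted p, apart from those said above to be named after their values were seen. The genes whose sequences are shown were chosen after their values were seen. Alternatives are in the closing section.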

Additional observations from a re-analysis of the deposited data

Results flagged for a closer look

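In each group of 4 libraries of each of the 28 tested members, the gap of the highest or lowest library to its neighbour was set against the whole range of the group by Dixon's test. Of 84 such groups 3 held a library past the limit; chance alone gives about 1 in 20. Trp53inp1 stood at 396 CPM in DCKO library 3 and at 288 to 306 in the other DCKO libraries. Phlda3 stood at 2.49 CPM in DCKO library 4 against 1.65 to 1.78 in the others, and was still below every control library. Dcxr stood at 7.99 CPM in DN3a library 1 against 3.70 to 4.25 in the others.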

How the results depend on the processing

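The alternatives were relative log expression and upper quartile scaling, no low-count filter, a count minimum of 50, DESeq2, limma-voom and only the 8 libraries compared. Further alternatives were replicate number as a block in those 8 libraries, each library left out in turn, and DCKO libraries 1 and 2 left out together. Mdm2, Phlda3 and Ddb2 kept their call in DCKO against DN3b under every alternative. For DCKO against DN3b only the 8 libraries compared gave 2169 genes (1148 higher, 1021 lower) and 4 members higher and 4 lower. The replicate block, where the numbers share no more than a number (correlations of -0.226 to 0.112 with DCKO), gave 1062 genes (589 higher, 473 lower). Its members were 2 higher and 2 lower. Without DCKO libraries 1 and 2 it was 950 genes (528 and 422) and 1 and 2 members. The block takes up residual degrees of freedom, and both fits have fewer samples than the main fit. Members higher were 3 with upper quartile scaling and 3 with no low-count filter. Leaving out 1 library gave 1601 to 3249 genes, 783 to 1691 higher and 773 to 1558 lower, with 3 to 5 members higher and 4 to 5 lower. Genes called were 1670 without DN3b library 2, 1601 without DN3b library 3, 1730 without DCKO library 1 and 1654 without DCKO library 2, and members higher were 3 without DN3b library 2 or 3 or DCKO library 1, 2 or 3. Members higher in DCKO against DN3a were 5 with upper quartile scaling. Members with all DCKO libraries below the controls were 4 to 7 with 1 library left out. The cause of these shifts, those with the block and without DCKO libraries 1 and 2 included, was not tested. In DN3b against DN3a the block changed the calls of Trp53, Mdm2 and Dcxr from the main fit, given above, and of no other member. That of Trp53 changed with only the 8 libraries too (0.43, adjusted p = 0.0335).

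Of 1755 member values under alternatives 43 changed sign, none of them of a member called in either fit. Sesn2 in DN3b against DN3a went to 0 with relative log expression scaling and DESeq2, -0.14 with upper quartile scaling, -0.03 with a count minimum of 50, -0.01 with only the 8 libraries or without DCKO libraries 1 and 2, -0.02 with the block, and -0.11 to 0.1 with 1 library left out. In the same comparison the fits with 1 library left out spanned 0 for Ei24 (-0.09 to 0.08), Apaf1 (-0.1 to 0), Plk2 (-0.58 to 0.36; -0.08 with upper quartile scaling) and Sertad1 (-0.18 to 0.18; 0.03 with limma-voom). In DCKO against DN3a Rrm2b was at -0.07 with upper quartile scaling and at -0.07 without DCKO libraries 1 and 2, and Plk2 spanned -0.07 to 0.59 with 1 library left out. In DCKO against DN3b those ranges were -0.21 to 0.03 for Trp53, -0.14 to 0.26 for Trp53inp1, -0.05 to 0.19 for Tnfrsf10b, -0.03 to 0.08 for Aen, -0.23 to 0.17 for Btg2, -0.07 to 0.9 for Plk2 and -0.11 to 0.01 for Triap1. Upper quartile scaling gave Trp53inp1 -0.04 and Aen -0.03 there, and leaving out DCKO libraries 1 and 2 gave Trp53 0.15, Mdm4 0.01 and Triap1 0.04. Depth limits Plk2, Perp, Eda2r and Ddit4l, with 10 to 88 counts in all.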
